A study of Mus musculus with 24 samples.

Results

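The genes of myelin and of the oligodendrocyte lineage were followed through hypothalamic injury in the mouse. They are 29 genes, chosen by symbol, of the 22274 genes of the table, and all 29 passed the filter on low counts in every comparison. By role they comprise 15 genes of mature myelin, 6 transcriptional regulators, 2 precursor genes, 4 genes of committed precursors and newly formed oligodendrocytes, and 2 signalling genes. RNA sequencing was performed on 24 libraries in 8 groups of 3. Pituitary stalk electrical lesion (PEL) destroys the stalk between hypothalamus and pituitary with cathodic current. Hypothalamic tissue containing the supraoptic and paraventricular nuclei was taken from sham-operated mice labelled day 0 (Sham) and from lesioned mice at day 3 (PEL_3d) and day 10 (PEL_10d). The same 3 states were also sampled with a treatment labelled GH (Sham_GH, PEL_3d_GH and PEL_10d_GH), for which the labels give neither dose nor schedule. Hippocampal tissue was taken from sham-operated mice labelled day 0 (HIP_Sham) and from mice at day 10 after PEL (HIP_PEL_10d), both without GH. The study used male C57BL/6 J mice, and the labels give no age and do not say whether the libraries of a group came from separate animals, so p-values measure the spread between libraries.

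Oligodendrocytes wrap axons of the central nervous system in myelin, a compact stack of membrane rich in lipid and in a few abundant proteins. They arise from precursor cells that carry the PDGF receptor alpha and the NG2 proteoglycan. On the way to myelination the precursors pass through a committed stage, lose those surface molecules and switch on the genes of myelin structure. The adult brain keeps a pool of precursors that divide and differentiate after injury.

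Total counts per library ran from 15095267 to 17973494. The lineage was present at high level in all 24 libraries, with the summed FPKM (fragments scaled for gene length and library size) of the 15 mature genes between 1953 and 5677. Markers of Schwann cells, the myelinating cells of peripheral nerve, were low, with 8 genes summing to between 7.48 and 29.3 FPKM. Of these, *Foxd3* was listed at 0 in every library. A pair of libraries went against their tissue labels. In Sham replicate 1, 8 hypothalamic marker genes summed to 6.62 FPKM, against 1144 and 1218 in the other Sham libraries. Its choroid plexus list stood at 14876 FPKM, against 21.6 and 24.9. Its hippocampal list stood at 232.0 FPKM, against 48.0 and 44.6. HIP_Sham replicate 1 held 989 FPKM of the hypothalamic list, against 1.18 and 2.24 in the other HIP_Sham libraries, and 42.9 FPKM of the hippocampal list, against 363.7 and 300.0. Each of these libraries thus carried markers of the other's tissue, and whether their labels were exchanged was not tested. Sham replicate 1 also had the highest mature myelin sum of all libraries, at 5677 FPKM. The study's legends give 2 Sham libraries without naming the one set aside. Sham replicate 1 is left out of the results below because of its markers, with the counts that include it given beside them. HIP_Sham replicate 1 was kept, with the counts of calls and the medians without it given beside the results that use it. The pituitary list reached 5555 FPKM in PEL_10d_GH replicate 3 and at most 114.7 FPKM in the other libraries. In that replicate *Pomc* alone stood at 5479 FPKM, with *Cga* at 34.7, *Prl* at 32.4, *Gh* at 4.97 and *Pou1f1* at 0 FPKM. The library HIP_Sham replicate 3 carries a hypothalamic tissue field under a hippocampal title, and its markers were those of hippocampus, with 2.24 FPKM of the hypothalamic list.

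Proximal promoters are shown for 3 genes that were higher at day 10 than at day 3 both with and without GH and whose RefSeq start coincides with the annotated gene start, a choice made after their values were seen. *Mog* encodes myelin oligodendrocyte glycoprotein, on the outermost lamella of myelin. *Enpp6* encodes a choline phosphodiesterase of newly forming oligodendrocytes. *Bmp4* encodes a secreted ligand of the bone morphogenetic protein family. The windows are the 250 bases before the transcription start (RefSeq, GRCm38.p6), written 5′ to 3′ on the gene's own strand. They cover chr17:37023399-37023648 on the minus strand, chr8:46986637-46986886 on the plus strand and chr14:46390670-46390919 on the minus strand. Capitals mark letter matches on either strand to a SOX core (ACAANG), a MYRF core (CTGGNAC) or an E-box (CANNTG).
Mog: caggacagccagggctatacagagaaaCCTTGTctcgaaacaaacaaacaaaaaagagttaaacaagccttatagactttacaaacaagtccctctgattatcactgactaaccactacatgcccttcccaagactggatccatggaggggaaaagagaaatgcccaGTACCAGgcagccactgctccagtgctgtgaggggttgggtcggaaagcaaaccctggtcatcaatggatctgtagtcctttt
Enpp6: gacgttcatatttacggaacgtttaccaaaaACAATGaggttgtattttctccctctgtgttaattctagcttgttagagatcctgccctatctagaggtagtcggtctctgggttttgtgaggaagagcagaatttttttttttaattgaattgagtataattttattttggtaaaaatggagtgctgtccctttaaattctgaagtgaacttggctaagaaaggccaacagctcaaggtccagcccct
Bmp4: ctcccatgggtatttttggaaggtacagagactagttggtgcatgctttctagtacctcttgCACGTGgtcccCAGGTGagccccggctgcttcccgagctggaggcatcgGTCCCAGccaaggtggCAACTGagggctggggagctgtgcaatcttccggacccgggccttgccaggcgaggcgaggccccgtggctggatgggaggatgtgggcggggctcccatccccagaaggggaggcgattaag
The *Mog* window held 1 SOX and 1 MYRF match, the *Enpp6* window 1 SOX match, and the *Bmp4* window 3 E-box matches and 1 MYRF match. Of the 29 genes, 21 had a RefSeq promoter entry. A SOX match was present in 11 of these (52.4%) and in 36.6% of 27025 promoters of the same length, and a MYRF match in 6 (28.6%) against 16% of all promoters. An E-box was present in 12 (57.1%) against 66%. These are matches of letters and show no binding.

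At day 3 after PEL the precursor genes and most regulators of the lineage were higher than in Sham, while most mature myelin genes did not pass the test. Of the 29 genes, 10 were higher and 1 was lower at an adjusted p under 0.05 (the quasi-likelihood test of edgeR, adjusted by Benjamini-Hochberg over all genes and used for all calls here). Over all 14905 genes tested, 22.2% were higher and 18.2% lower. At an unadjusted p under 0.05 there were 13 of the 29 (44.8%), a share near the 48.8% of all genes. The median log2 fold change was 0.08 over the 29 genes and -0.01 over all genes. Both precursor genes rose, with 4 of 6 regulators, 2 of 4 committed-stage genes, 2 of 15 mature genes and neither signalling gene. In bulk tissue, a change in the number of cells of a type and a change in RNA per cell cannot be told apart.

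*Pdgfra* (chr5:75152292-75198215, plus strand, GRCm38) encodes the receptor through which platelet-derived growth factor drives precursor division. Its level was 18.5 and 17.5 FPKM in the Sham libraries and 27.9, 24.5 and 26.6 FPKM at PEL_3d. All 3 lesioned libraries lay above both Sham libraries, and the log2 fold change was 0.62 ± 0.08 (SE; adjusted p = 0.000173, edgeR). *Cspg4* (chr9:56865033-56899870, plus strand) encodes NG2. It stood at 2.63 and 2.83 FPKM among Sham libraries and at 5.45, 4.999 and 5.82 FPKM in PEL_3d. The groups did not overlap, and *Cspg4* had the smallest adjusted p of the 29 genes, with a log2 fold change of 0.97 ± 0.10 (SE; adjusted p = 3.4e-05, edgeR). Outside the lineage *Pdgfra* is also expressed by fibroblasts and *Cspg4* by pericytes. A list of 4 fibroblast genes, added after the values were seen, summed to 42.7 and 46.8 FPKM in Sham and to between 94.9 and 193.7 FPKM in PEL_3d. A list of 4 pericyte genes added in the same way summed to 34.9 and 36.5 FPKM in Sham and to between 53.4 and 66.0 FPKM in PEL_3d. Their part in the change of the 2 precursor genes was not tested.

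Among the regulators, *Olig1* (log2 fold change 0.52 ± 0.08 SE, adjusted p = 0.000396) and *Olig2* (0.28 ± 0.09, adjusted p = 0.027), paired basic helix-loop-helix factors that specify the lineage, were higher at PEL_3d. *Sox10*, the HMG-box factor kept through all stages, was higher by 0.46 ± 0.12 (SE; adjusted p = 0.00986), and *Nkx2-2*, a homeobox factor of differentiating precursors, also passed. *Nkx6-2*, a homeobox factor linked to myelinating cells, was lower. Its level was 13.9 and 15.7 FPKM in Sham and 10.7, 11.5 and 11.1 FPKM in PEL_3d, a fall that separated the groups (log2 fold change -0.50 ± 0.11 SE, adjusted p = 0.00387). *Myrf*, the factor that switches on myelin genes, did not pass the test (-0.06 ± 0.09).

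*Gpr17*, a G protein-coupled receptor typical of committed precursors, stood at 19.0 and 20.7 FPKM among Sham libraries and at 26.8, 31.4 and 32.0 FPKM in PEL_3d. The groups did not overlap (log2 fold change 0.58 ± 0.09 SE, adjusted p = 0.000611). *Bcas1*, of early myelinating cells, passed narrowly with an adjusted p of 0.0499, while *Enpp6* (-0.16 ± 0.25) and *Bmp4* (0.06 ± 0.23) did not pass.

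The mature genes were mostly near their level in Sham replicates 2 and 3. *Mbp*, for myelin basic protein, which compacts the membrane, read 1105 and 1589.6 FPKM in Sham and 1289.8, 1267 and 1296 FPKM in PEL_3d. The lesioned libraries lay between the 2 Sham libraries (log2 fold change -0.09 ± 0.12 SE). *Mog* (0.08 ± 0.13), *Mag* (0.12 ± 0.11), for the glycoprotein facing the axon, and *Mobp* (-0.20 ± 0.12), for an abundant protein of compact myelin, also did not pass. The mature genes that rose were *Trf* and *Cldn11*. *Trf*, for the iron carrier transferrin, stood at 117 and 160.4 FPKM among Sham libraries and at 288, 240.0 and 272 FPKM in PEL_3d. It rose in all 3 libraries (log2 fold change 0.95 ± 0.11 SE, adjusted p = 0.000106). *Cldn11* encodes the claudin of the tight junctions between myelin lamellae.

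The call on the day 3 genes rested unevenly on the control libraries. With Sham replicate 1 included, 3 of the 29 genes passed (*Cspg4*, *Pdgfra* and *Gpr17*), all higher, a share near the 10.4% of all genes that were then higher. Without Sham replicate 2 the calls were 5 higher and 5 lower, where 14.9% of all genes were higher and 7.56% lower, and the median log2 fold change of the 29 genes turned to -0.11. With Sham replicate 1 included that median was -0.30. For the mature genes alone the median was 0.03, and it was -0.14 without Sham replicate 2 and -0.49 with Sham replicate 1 included. Without PEL_3d replicate 3 the calls were 6 higher and 1 lower, where 18.8% of all genes were higher and 12.9% lower. Over all 12 alternatives, *Cspg4*, *Pdgfra* and *Gpr17* passed each time. Markers of other cells moved with these genes. Summed over 8 genes each, microglial markers went from 164.1 and 169.0 FPKM in Sham to between 864.0 and 969.0 FPKM in PEL_3d. Astrocyte markers went from 1083 and 1126 to between 1776 and 1977, and neuronal markers from 1897 and 1928 to between 1443 and 1667. In the astrocyte list *Gfap* went from 95.4 and 127.5 to between 688.5 and 814.1 FPKM, while *Slc1a3* and *Slc1a2* were lower in every PEL_3d library. The median log2(FPKM + 0.1) of the neuronal list overlapped, at 7.58 and 7.55 in Sham and between 7.42 and 7.68 in PEL_3d. The part of these cells in the result was not tested.

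**Figure D1:**
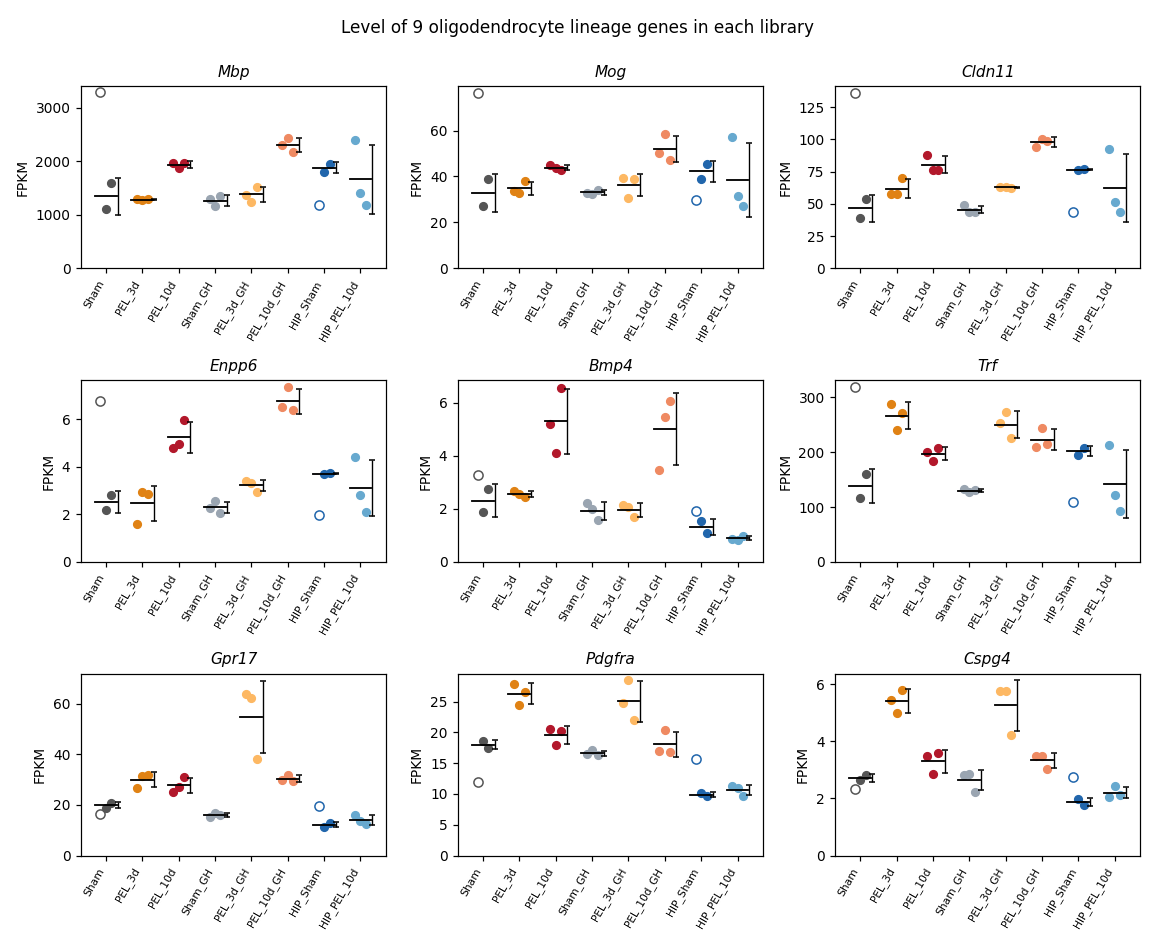
FPKM of 9 genes of the lineage in each of the 24 libraries, 1 panel per gene, with the libraries of the 8 groups along the horizontal axis. Lines and bars give the mean and SD of the filled points; the open circles, Sham replicate 1 and HIP_Sham replicate 1, went against their tissue labels and are outside those means. The means of Pdgfra and Cspg4 peak at day 3, and among the hypothalamic groups those of Mbp, Enpp6 and Bmp4 are highest at day 10.

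The day 3 pattern was measured a second time in libraries that share none with the first, in PEL_3d_GH against Sham_GH. There 14 of 29 genes were higher and 2 lower, where 26.9% of all 14743 genes were higher and 25.2% lower. At an unadjusted p under 0.05 there were 18 of the 29 (62.1%), a share near the 57.5% of all genes. The median log2 fold change was 0.24 over the 29 genes and -0.002 over all genes. All 10 genes that rose without GH rose here too, and *Nkx6-2* was lower in both. Over the 14670 genes tested in both, 89.8% of those higher without GH were also higher with GH. *Pdgfra* was 16.5, 17.1 and 16.3 FPKM in Sham_GH and 24.7, 28.6 and 22.0 FPKM in PEL_3d_GH. The groups were separate (log2 fold change 0.55 ± 0.09 SE, adjusted p = 0.00054). *Cspg4* went from 2.83, 2.86 and 2.24 FPKM to 5.78, 5.78 and 4.24 FPKM. Its log2 fold change, 0.97 ± 0.14 (SE; adjusted p = 0.000283), was close to that without GH.

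*Gpr17* had the largest log2 fold change of the 29 genes in this comparison. Its level was 15.14, 16.7 and 15.9 FPKM in Sham_GH and 63.7, 62.2 and 38.3 FPKM in PEL_3d_GH. All 3 lesioned libraries lay above every Sham_GH library, with the third well below the other two (log2 fold change 1.76 ± 0.17 SE, adjusted p = 1.97e-05). *Bcas1* rose by 0.79 ± 0.09 (SE; adjusted p = 6.35e-05), *Sox10* by 0.66 ± 0.08 (adjusted p = 0.000128) and *Olig1* by 0.42 ± 0.06 (adjusted p = 0.000176). *Trf* rose by 0.94 ± 0.09 (SE; adjusted p = 1.6e-05) and *Cldn11* by 0.44 ± 0.06 (adjusted p = 0.000309). The other genes that rose were *Olig2*, *Nkx2-2*, *Enpp6*, *Lpar1*, *Cnp* and *Ugt8a*, and *Tspan2*, a myelin tetraspanin, was lower. *Mbp* (0.09 ± 0.09), *Mog* (0.15 ± 0.10), *Mag* (-0.18 ± 0.08) and *Mobp* (-0.03 ± 0.08) did not pass. Microglial markers went from between 130.1 and 149.9 FPKM in Sham_GH to between 868.9 and 1150.0 FPKM in PEL_3d_GH, and fibroblast markers from between 27.5 and 47.8 to between 136.8 and 266.5 FPKM, while neuronal markers went from between 1881 and 2029 to between 1318 and 1556 FPKM. Astrocyte markers went from between 1145 and 1185 to between 1781 and 2080 FPKM, and the pericyte list from between 34.9 and 38.3 to between 51.1 and 76.7 FPKM. Their part was not tested.

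A wider list of 16 precursor genes, outside the 29, moved at day 3 as follows. Without GH 7 were higher and 1 lower, the median log2 fold change being 0.21, and with GH 10 were higher and 2 lower, with a median of 0.24. *Vcan*, for the matrix proteoglycan versican, rose by 0.67 ± 0.09 (SE; adjusted p = 0.000316) without GH and by 1.04 ± 0.15 (adjusted p = 0.000264) with GH. *Matn4*, for matrilin 4, rose by 0.79 ± 0.16 (SE; adjusted p = 0.0031) and by 1.28 ± 0.17 (adjusted p = 0.000166). Of a wider list of mature genes, of which 23 of 24 were found in the table, 7 were higher and 2 lower without GH, with a median of 0.0007. With GH 7 were higher and 1 lower, with a median of 0.10. Both counts of higher genes were near the shares of all genes, 22.2% and 26.9%. *Tppp*, for a tubulin-binding protein of oligodendrocytes, was lower in both comparisons (log2 fold change -0.30 ± 0.07 SE, adjusted p = 0.0064, and -0.44 ± 0.08, adjusted p = 0.000906).

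At day 10 genes of every class but the precursors were higher than in Sham. In PEL_10d against Sham 13 of 29 genes were higher and none was lower, where 7.97% of all 14801 genes were higher and 1.43% lower. The median log2 fold change was 0.41 over the 29 genes and -0.01 over all genes. Of the 15 mature genes 6 rose and all 15 had a log2 fold change above 0. Of the 4 committed-stage genes 3 rose, as did both signalling genes, 2 of 6 regulators (*Myrf* and *Sox10*) and neither precursor gene. *Pdgfra* was 20.6, 17.96 and 20.2 FPKM in PEL_10d, and *Cspg4* was 3.48, 2.85 and 3.61 FPKM. Each precursor gene had all 3 values below its PEL_3d values (log2 fold change against Sham 0.19 ± 0.08 and 0.26 ± 0.12 SE).

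*Enpp6* (chr8:46986887-47096762, plus strand) stood at 2.18 and 2.82 FPKM among Sham libraries and at 4.79, 4.94 and 5.98 FPKM in PEL_10d. The groups were separate (log2 fold change 1.06 ± 0.19 SE, adjusted p = 0.0115). *Bmp4* (chr14:46383520-46390669, minus strand) stood at 1.89 and 2.75 FPKM among Sham libraries and at 5.21, 4.13 and 6.58 FPKM in PEL_10d. It too was higher in every lesioned library (log2 fold change 1.10 ± 0.27 SE, adjusted p = 0.039). *Gpr17* was 25.0, 27.2 and 31.1 FPKM, above both Sham libraries (0.47 ± 0.10, adjusted p = 0.0203).

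*Cnp*, for the phosphodiesterase of uncompacted myelin, was 135 and 158 FPKM in Sham and 230.1, 218 and 207 FPKM in PEL_10d. It rose by 0.55 ± 0.08 (SE; adjusted p = 0.00451) with separate groups. *Mag* rose by 0.69 ± 0.11 (SE; adjusted p = 0.00619), *Cldn11* by 0.76 ± 0.13 (adjusted p = 0.00755), *Tspan2* by 0.39 ± 0.07 (adjusted p = 0.0089) and *Trf* by 0.49 ± 0.11 (adjusted p = 0.0255). *Aspa*, for the enzyme that frees acetate from N-acetylaspartate, rose as well. *Mbp* was 1969, 1865 and 1973 FPKM in PEL_10d, above both Sham libraries, but just missed the threshold (0.49 ± 0.13, adjusted p = 0.0514). *Mog* (0.41 ± 0.13, adjusted p = 0.0867) and *Mobp* (0.24 ± 0.14) did not pass. Of the signalling genes, *Cnksr3*, for a scaffold protein, rose by 0.97 ± 0.18 (SE; adjusted p = 0.012), and *Lpar1*, for a receptor of lysophosphatidic acid, passed as well.

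These day 10 calls depended on which Sham libraries were used. The 2 Sham libraries had mature sums of 1997 and 2772 FPKM, and PEL_10d had 3367, 3201 and 3399 FPKM. None of the 29 genes passed with Sham replicate 1 included or without Sham replicate 2, where 1.81% and 1.28% of all genes were higher. The median log2 fold change of the 29 genes was then 0.0067 and 0.27. Without PEL_10d replicate 3, 8 passed, where 6.45% of all genes were higher. Microglial markers summed to between 400.8 and 450.6 FPKM in PEL_10d and astrocyte markers to between 1475 and 1550 FPKM, and fibroblast markers to between 81.7 and 178.7 FPKM, all above Sham. Neuronal markers summed to between 1579 and 1774 FPKM, below the 1897 and 1928 FPKM of Sham. Their part in the result was not tested.

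With GH the day 10 comparison included almost all genes of the lineage. In PEL_10d_GH against Sham_GH 26 of 29 genes were higher and none lower, where 17.7% of all 14686 genes were higher and 13.3% lower. The median log2 fold change was 0.71 over the 29 genes and -0.009 over all genes. All 15 mature genes, all 4 committed-stage genes, both signalling genes and 5 of 6 regulators rose. The genes that did not pass were *Pdgfra* (0.07 ± 0.06), *Cspg4* (0.31 ± 0.11, adjusted p = 0.0519) and *Nkx6-2* (0.04 ± 0.15). *Mbp* stood at 1286, 1163 and 1351 FPKM in Sham_GH and at 2308, 2444 and 2181 FPKM in PEL_10d_GH. The groups were far apart (log2 fold change 0.84 ± 0.07 SE, adjusted p = 2.55e-05).

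*Cldn11* had the smallest adjusted p. It went from 48.7, 43.5 and 43.9 FPKM in Sham_GH to 93.7, 100.6 and 99.0 FPKM in PEL_10d_GH. That was a log2 fold change of 1.09 ± 0.06 (SE; adjusted p = 2.35e-06). *Enpp6* had the largest change. It went from 2.25, 2.54 and 2.07 FPKM to 6.52, 7.36 and 6.38 FPKM. Its log2 fold change was 1.69 ± 0.10 (SE; adjusted p = 3.29e-06). *Bmp4* went from 2.23, 2.01 and 1.57 FPKM to 3.49, 5.46 and 6.08 FPKM, again with no overlap (1.33 ± 0.25, adjusted p = 0.0028).

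*Mog* was 32.6, 32.3 and 34.2 FPKM in Sham_GH and 50.2, 58.3 and 47.1 FPKM in PEL_10d_GH. It was higher in all 3 lesioned libraries (log2 fold change 0.64 ± 0.09 SE, adjusted p = 0.000484). *Mag* rose by 0.73 ± 0.09 (SE; adjusted p = 0.000267), *Mobp* by 0.64 ± 0.06 (adjusted p = 6.66e-05), *Cnp* by 0.74 ± 0.07 (adjusted p = 3.74e-05) and *Trf* by 0.79 ± 0.07 (adjusted p = 5.32e-05). *Gpr17* rose by 0.92 ± 0.06 (SE; adjusted p = 5.24e-06) and *Bcas1* by 0.72 ± 0.06 (adjusted p = 2.06e-05). The remaining mature genes that rose serve myelin lipid synthesis (*Ugt8a* for galactosylceramide and *Fa2h* for 2-hydroxylated fatty acids), membrane and cytoskeleton (*Mal*, *Opalin*, *Ermn* and *Tspan2*), acetate supply (*Aspa*) and gap junctions (*Gjb1*, connexin 32), with log2 fold changes between 0.53 and 0.77. Leaving out any 1 library left 24 to 26 genes called, all higher, where 13.5% to 19.8% of all genes were higher. Without PEL_10d_GH replicate 3, the library with the high *Pomc* value, 26 were called, where 14.4% of all genes were higher. Microglial markers summed to between 540.4 and 662.6 FPKM in PEL_10d_GH, and astrocyte markers to between 1646 and 2063 FPKM against 1145 to 1185 FPKM in Sham_GH. Fibroblast markers summed to between 75.6 and 179.2 FPKM against 27.5 to 47.8 FPKM, and neuronal markers to between 1579 and 1723 FPKM against 1881 to 2029 FPKM. Their part was not tested.

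All 13 genes that rose at day 10 without GH rose with GH, where over the 14575 genes tested in both, 94.3% of the genes higher without GH were higher with GH. Of the wider list of 23 mature genes, 7 were higher at day 10 without GH and 21 with GH, with medians of 0.42 and 0.66, and none was lower in either, where 7.97% and 17.7% of all genes were higher. *Sirt2*, for a tubulin deacetylase abundant in oligodendrocytes, rose by 0.60 ± 0.06 (SE; adjusted p = 0.00112) and by 0.83 ± 0.06 (adjusted p = 1.19e-05). *Adamts4*, for a secreted protease, rose by 0.84 ± 0.11 (SE; adjusted p = 0.0029) and by 0.99 ± 0.10 (adjusted p = 7.93e-05). *Gjc3*, for a connexin of oligodendrocytes, rose by 0.53 ± 0.10 (SE; adjusted p = 0.0115) and by 0.72 ± 0.06 (adjusted p = 3.93e-05). Of the wider 16 precursor genes, 3 were higher without GH, and 5 were higher and 1 lower with GH, where 13.3% of all genes were lower.

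**Figure D2:**
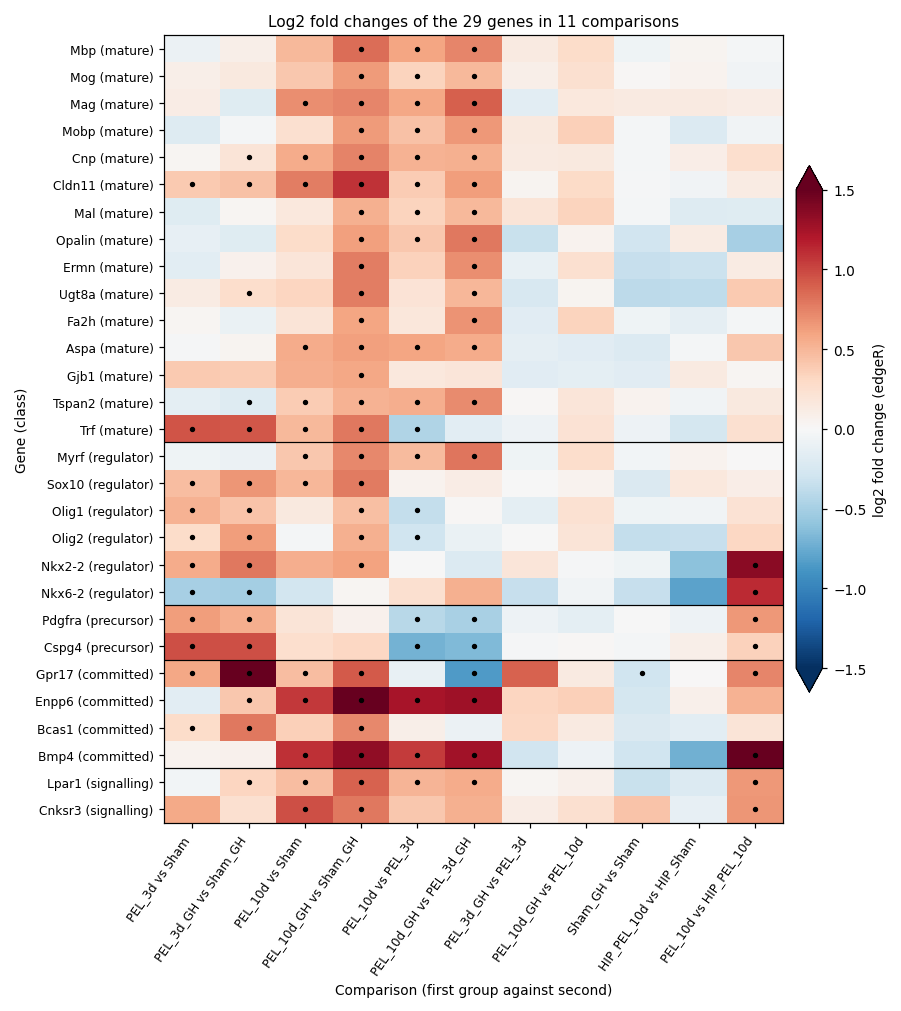
Log2 fold change of each of the 29 genes (rows, with the class in brackets) in 11 comparisons (columns, first group against second), on a colour scale that saturates at 1.5 in either direction; a dot marks an adjusted p under 0.05 by edgeR. Both precursor genes are called against Sham at day 3 with and without GH and at day 10 in neither, and the comparisons of GH against no GH have a single dot, for Gpr17 in the sham-operated groups.

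The direct comparison of day 10 with day 3 uses no Sham library. In PEL_10d against PEL_3d 14 of 29 genes were higher and 5 lower, where 6.33% of all 14807 genes were higher and 12.2% lower. The median log2 fold change was 0.34 over the 29 genes and 0.01 over all genes. Of the 15 mature genes 10 rose and 1 fell, and both precursor genes fell. *Mbp* was higher in every PEL_10d library than in any PEL_3d library (0.59 ± 0.06 SE, adjusted p = 0.000265), as its values above show. *Tspan2* was 34.7, 33.4 and 34.7 FPKM in PEL_3d and 48.5, 49.5 and 51.4 FPKM in PEL_10d. This tight separation gave the smallest adjusted p of the 29 genes (0.54 ± 0.06 SE, adjusted p = 0.000263).

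*Cnp* rose by 0.53 ± 0.06 (SE; adjusted p = 0.000581), *Mag* by 0.58 ± 0.08 (adjusted p = 0.00121), *Mobp* by 0.44 ± 0.08 (adjusted p = 0.00671) and *Mog* by 0.33 ± 0.07 (adjusted p = 0.0152). *Lpar1* was 14.9, 14.1 and 16.5 FPKM in PEL_3d and 23.7, 21.5 and 20.5 FPKM in PEL_10d, a separate rise of 0.51 ± 0.07 (SE; adjusted p = 0.00107). *Enpp6* was 1.60, 2.95 and 2.83 FPKM in PEL_3d, below all PEL_10d libraries (1.23 ± 0.19, adjusted p = 0.00243), and *Bmp4* was 2.67, 2.56 and 2.45 FPKM, also below all of them (1.05 ± 0.20, adjusted p = 0.00701). *Myrf* rose by 0.47 ± 0.08 (SE; adjusted p = 0.00307). *Mal*, *Aspa*, *Opalin* and *Cldn11* were the others that rose.

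Those that fell between day 3 and day 10 were the precursor genes *Pdgfra* (-0.42 ± 0.07 SE, adjusted p = 0.00496) and *Cspg4* (-0.71 ± 0.11, adjusted p = 0.00198), with *Olig1*, *Olig2* and *Trf*. *Trf* was 200.2, 184 and 207 FPKM in PEL_10d, below every PEL_3d library, so that the mature class held a gene moving against the rest (-0.45 ± 0.07 SE, adjusted p = 0.00353). Astrocyte, microglial and pericyte sums were also lower at day 10 than at day 3, the pericyte list between 38.2 and 50.7 FPKM against between 53.4 and 66.0 FPKM, and their part was not tested. The fibroblast list was between 81.7 and 178.7 FPKM at day 10 and overlapped its day 3 range.

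The libraries with GH gave a second measurement, under that treatment, that shares no library with the first. In PEL_10d_GH against PEL_3d_GH 17 of 29 genes were higher and 3 lower, where 4.81% of all 14838 genes were higher and 10.8% lower, the median log2 fold change being 0.53 over the 29 genes and 0.003 over all genes. All 14 genes that rose without GH rose with GH. Over the 14708 genes tested in both, 40.6% of those higher without GH were higher with GH. *Pdgfra* was 17.02, 20.4 and 16.8 FPKM in PEL_10d_GH, and *Cspg4* 3.48, 3.51 and 3.03 FPKM. Both lay below all PEL_3d_GH values and fell by 0.49 ± 0.10 (SE; adjusted p = 0.0115) and by 0.67 ± 0.13 (adjusted p = 0.0117) on the log2 scale. *Gpr17* fell from the high PEL_3d_GH values to 30.0, 32.0 and 29.3 FPKM (-0.85 ± 0.17 SE, adjusted p = 0.0115), while without GH its day 10 and day 3 values overlapped (-0.11 ± 0.10). None of these 3 falls passed without PEL_3d_GH replicate 1, with adjusted p of 0.0668 for *Pdgfra*, 0.0697 for *Cspg4* and 0.0644 for *Gpr17*. *Cspg4* also missed the threshold without PEL_3d_GH replicate 2 (adjusted p = 0.0523), and *Pdgfra* without PEL_10d_GH replicate 1 (adjusted p = 0.0554). Microglial markers summed to between 540.4 and 662.6 FPKM in PEL_10d_GH against 868.9 to 1150.0 FPKM in PEL_3d_GH. The pericyte list, for cells that also express *Cspg4*, summed to between 36.5 and 47.5 FPKM against 51.1 to 76.7 FPKM. Fibroblast and astrocyte sums overlapped. Neuronal sums were between 1579 and 1723 FPKM in PEL_10d_GH, above the 1318 to 1556 FPKM of PEL_3d_GH. The part of these cells was not tested.

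*Cldn11* rose by 0.63 ± 0.06 (SE; adjusted p = 0.000576), *Enpp6* by 1.27 ± 0.13 (adjusted p = 0.000755), *Myrf* by 0.80 ± 0.10 (adjusted p = 0.00157) and *Tspan2* by 0.70 ± 0.09 (adjusted p = 0.00181). *Mag* rose by 0.90 ± 0.12 (SE; adjusted p = 0.00189), and *Mbp* (0.74 ± 0.10), *Mobp* (0.65 ± 0.09) and *Ermn* (0.69 ± 0.09) shared an adjusted p of 0.00232. *Mog* rose by 0.49 ± 0.12 (SE; adjusted p = 0.0279). The genes that rose here and missed the threshold without GH were *Ermn*, *Ugt8a* and *Fa2h*. Among the 12 alternatives of each fit, *Mbp*, *Mag*, *Mobp*, *Cnp*, *Mal*, *Tspan2*, *Myrf*, *Enpp6*, *Bmp4* and *Lpar1* passed in all of them in both comparisons of day 10 with day 3. Of the wider list of 23 mature genes, 14 were higher in each of these comparisons and none was lower. Of the wider 16 precursor genes, 2 were higher and 4 lower without GH, with a median of -0.014, and 1 was higher and 3 lower with GH, with a median of -0.018. Of all genes 6.33% were higher and 12.2% lower without GH, and 4.81% and 10.8% with GH. *Vcan* of that list fell by 0.56 ± 0.08 (SE; adjusted p = 0.00215) and by 1.06 ± 0.16 (adjusted p = 0.00365) on the log2 scale.

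**Figure D3:**
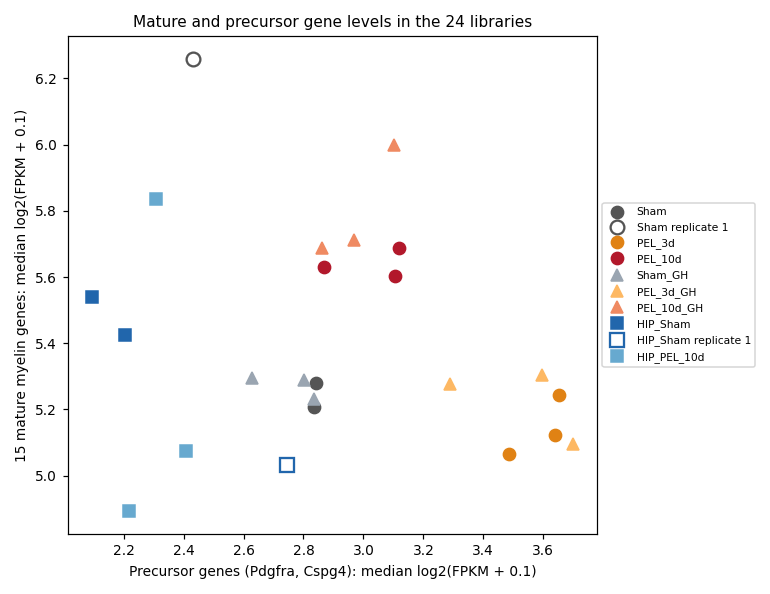
Median log2(FPKM + 0.1) of the 15 mature myelin genes (vertical) against that of Pdgfra and Cspg4 (horizontal) in each of the 24 libraries, with open symbols for the 2 libraries whose markers went against their tissue label. The PEL_3d and PEL_3d_GH libraries lie at precursor values from 3.29 to 3.70 with mature values up to 5.30, and the PEL_10d and PEL_10d_GH libraries at precursor values from 2.86 to 3.12 with mature values from 5.60 to 6.0.

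Class medians, taken from the same genes and libraries, were as follows. The median log2(FPKM + 0.1) of the mature genes was 5.21 and 5.28 in Sham, between 5.07 and 5.25 in PEL_3d and between 5.60 and 5.69 in PEL_10d. For the precursor genes it was 2.84 in both Sham libraries, between 3.48 and 3.65 in PEL_3d and between 2.87 and 3.12 in PEL_10d. With GH the mature medians were 5.23 to 5.29 in Sham_GH, 5.10 to 5.30 in PEL_3d_GH and 5.69 to 6.0 in PEL_10d_GH, and the precursor medians were 2.63 to 2.83, 3.29 to 3.70 and 2.86 to 3.10. The precursor medians at day 10 lay above Sham by less than they did at day 3. The class medians were given no test.

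**Figure D4:**
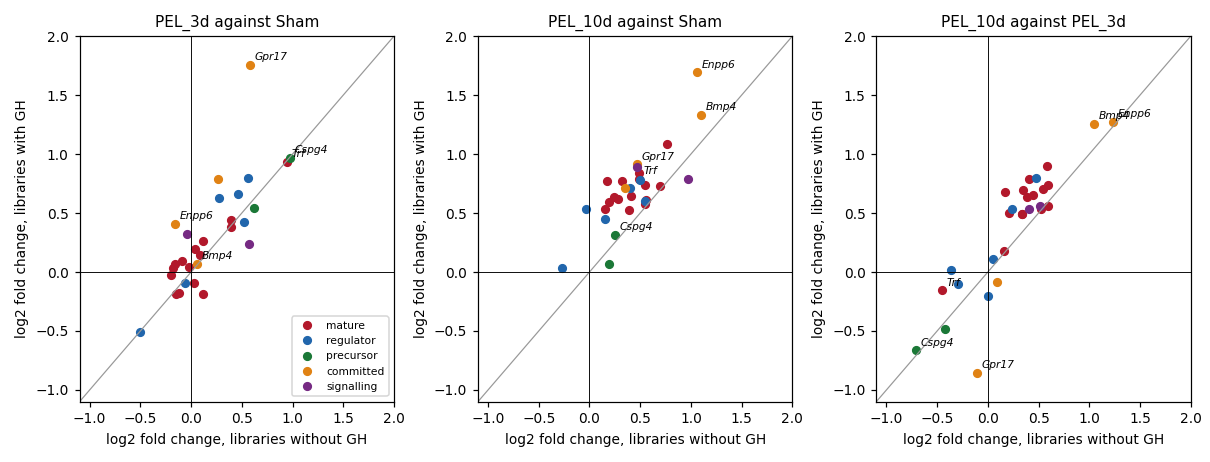
Log2 fold change of each of the 29 genes in the libraries without GH (horizontal) and with GH (vertical), for day 3 against Sham, day 10 against Sham and day 10 against day 3; colours give the class and the grey line marks equal values. No library enters both axes; Gpr17 lies above the line at day 3 (0.58 and 1.76), and most genes lie above it at day 10 against Sham.

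GH itself was compared within each state. No gene of the 29 passed in PEL_3d_GH against PEL_3d or in PEL_10d_GH against PEL_10d by edgeR, where 0.027% and 0% of all genes were higher and 0% lower. At an unadjusted p under 0.05 there were 6 and 10 of the 29 (20.7% and 34.5%), against 6.8% and 6.14% of all genes. DESeq2 called 1 (*Gpr17*) and 3 (*Mal*, *Mobp* and *Mbp*), all higher with GH, where it called 0.338% and 0.217% of all genes higher. At day 10 the log2 differences of the 15 mature genes ran from -0.17 to 0.36 with a median of 0.22, and 13 were above 0. *Mbp* differed by 0.28 ± 0.06 (SE; adjusted p = 0.549) and *Mal* by 0.34 ± 0.07 (adjusted p = 0.441). All 3 *Mbp* values of PEL_10d_GH lay above all 3 of PEL_10d.

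*Gpr17* had the largest difference at day 3. The PEL_3d_GH libraries, at 63.7, 62.2 and 38.3 FPKM, all lay above the PEL_3d libraries, at 26.8, 31.4 and 32.0 FPKM. The log2 difference was 0.89 ± 0.17 (SE) with an adjusted p of 0.286 by edgeR. Over the alternatives the adjusted p ran from 0.000106 with DESeq2 to 0.889, and without PEL_3d_GH replicate 3 it was 0.00234, with a log2 difference of 1.08. In sham-operated mice 1 gene was called in Sham_GH against Sham, *Gpr17*, which was lower (log2 fold change -0.30 ± 0.06 SE, adjusted p = 0.0483). Among all 14539 genes 0.798% were higher and 0.296% lower there. At an unadjusted p under 0.05 there were 10 of the 29 (34.5%), against 15% of all genes, and 4 of the 29 had a log2 fold change above 0. The *Gpr17* groups did not overlap, at 15.14 to 16.7 FPKM against 19.0 and 20.7 FPKM, and the call was lost with Sham replicate 1 included, in the fit holding all hypothalamic groups and without Sham replicate 2, Sham replicate 3, Sham_GH replicate 1 or Sham_GH replicate 3.

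Whether the lesion effect itself differed with GH was tested as a difference of log2 fold changes, in fits chosen after the values were seen. None of the 29 genes passed at day 3 or day 10. Across all genes, 0.00659% were higher and 0.0396% lower at day 3, and 0% at day 10. At an unadjusted p under 0.05 there were 4 and 13 of the 29 (13.8% and 44.8%), against 1594 of all 15164 genes at day 3 and 9.04% at day 10, so that the day 3 share was near that of all genes. DESeq2 called 1, which was higher, and 0, where it called 0.231% of all genes higher and 0.706% lower at day 3 and 0.311% and 0.324% at day 10. The day 3 difference for *Gpr17* was 1.17 ± 0.22 (SE; adjusted p = 0.0932), and without PEL_3d_GH replicate 3 it was 1.37 with an adjusted p of 0.000107, when *Bcas1* passed too and 1.1% of all genes were higher and 3.08% lower. At day 10 the differences were above 0 for all 15 mature genes, with a median of 0.32, and ranged up to 0.59 for *Ermn*. That median was 0.85 with Sham replicate 1 included and 0.48 without Sham replicate 2. At day 3 the median of the mature differences was 0.06, and it was 0.55 and 0.26 in those settings. None of the 29 genes passed in them at either day, and *Gpr17* at day 3 was 1.12 (adjusted p = 0.562) with Sham replicate 1 included. These values share the Sham_GH and Sham libraries with each other, and in the direct comparison of those groups 12 of the 15 mature genes had a log2 fold change below 0, with none past the threshold by edgeR. DESeq2 called *Ugt8a* lower there, and without Sham replicate 2 *Ugt8a* and *Ermn* were called lower.

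In the hippocampus no gene of the 29 passed in HIP_PEL_10d against HIP_Sham by edgeR, as was so for all 14039 genes tested (0% in either direction). At an unadjusted p under 0.05 there was 1 of the 29 (3.45%), against 10.2% of all genes. The libraries varied widely within each group. *Mbp* was 1180.3, 1805 and 1958 FPKM in HIP_Sham and 2395, 1414 and 1175 FPKM in HIP_PEL_10d. The groups overlapped (log2 fold change 0.04 ± 0.36 SE). Without HIP_Sham replicate 1 the HIP_Sham mean of *Mbp* was 1881 FPKM, above the 1662 FPKM of HIP_PEL_10d. The mature sums were 2058, 3164 and 3420 FPKM in HIP_Sham and 4030.0, 2380.0 and 1953 FPKM in HIP_PEL_10d. *Pdgfra* was 15.7, 10.2 and 9.61 FPKM against 11.2, 11.01 and 9.70 FPKM, and its highest value belonged to the library holding hypothalamic markers. Without that library, HIP_Sham replicate 1, 0 of the 29 genes passed, their median log2 fold change being -0.22, while 2.09% of all genes were then higher and 4.07% lower. Choroid plexus markers summed to 4346 and 5446 FPKM in HIP_Sham replicates 2 and 3 and to between 38.7 and 799.9 FPKM in HIP_PEL_10d, and their part was not tested.

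Between the lesioned tissues, PEL_10d against HIP_PEL_10d, 8 of 29 genes were higher in hypothalamus and none lower, where 30.9% of all 14561 genes were higher and 29.7% lower. The count of higher genes was thus near the share of all genes, and at an unadjusted p under 0.05 there were 34.5% of the 29 against 64.5% of all genes. Both precursor genes, both signalling genes, 2 committed-stage genes and 2 regulators were higher, and none of the 15 mature genes passed by edgeR. DESeq2 called 9 genes higher and 1 lower, the mature gene *Opalin* (-0.51, adjusted p = 0.0427), where it called 28.7% of all genes higher and 28.4% lower. Without HIP_PEL_10d replicate 3, 7 were higher and 1 lower, where 26.8% of all genes were higher and 26.7% lower. *Bmp4* was 0.865, 0.839 and 0.984 FPKM in HIP_PEL_10d, far below its 3 values in PEL_10d (log2 fold change 2.30 ± 0.24 SE, adjusted p = 4.14e-05). *Pdgfra* was higher by 0.65 ± 0.07 (SE; adjusted p = 3.94e-05) and *Cspg4* by 0.34 ± 0.12 (adjusted p = 0.0302). *Nkx2-2* was 5.79, 5.42 and 4.16 FPKM in PEL_10d and 2.42, 1.61 and 1.11 FPKM in HIP_PEL_10d, with no overlap (1.35 ± 0.28, adjusted p = 0.00229). *Nkx6-2* (1.12 ± 0.27, adjusted p = 0.00569), *Gpr17* (0.74 ± 0.11, adjusted p = 0.000329), *Lpar1* (0.65 ± 0.18, adjusted p = 0.0117) and *Cnksr3* (0.66 ± 0.20, adjusted p = 0.0179) completed the set.

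In the sham-operated libraries, untested and with HIP_Sham replicate 1 set aside, 6 of these 8 genes were higher in both Sham libraries than in HIP_Sham replicates 2 and 3. The 8 genes were picked by the comparison of the lesioned tissues, and the share of all genes standing this way was not computed. *Lpar1* overlapped, at 12.97 and 16.2 FPKM against 15.14 and 13.4 FPKM, and *Cnksr3* stood the other way, at 1.63 and 1.27 FPKM against 1.82 and 1.71 FPKM. *Nkx2-2* was 3.21 and 3.77 FPKM in Sham and 1.82 and 1.60 FPKM in HIP_Sham replicates 2 and 3, and *Pdgfra* was 18.5 and 17.5 FPKM against 10.2 and 9.61 FPKM. Leaving out HIP_PEL_10d replicate 1, whose mature genes were the highest of its group, raised the calls to 22, all higher in hypothalamus, where 30% of all genes were higher, with *Mbp* then higher in hypothalamus by 0.30 (adjusted p = 0.0143). Of the wider 16 precursor genes 10 were higher and 2 lower in hypothalamus, led by *Lhfpl3* (1.58 ± 0.12 SE, adjusted p = 5.04e-06). Neuronal markers summed to between 1579 and 1774 FPKM in PEL_10d and to between 2623 and 2687 FPKM in HIP_PEL_10d. Fibroblast markers summed to between 81.7 and 178.7 FPKM in PEL_10d against 21.3 to 69.1 FPKM in HIP_PEL_10d, and the pericyte list to between 38.2 and 50.7 against 34.7 to 38.1 FPKM. Microglial markers (400.8 to 450.6 against 184.6 to 236.9 FPKM) and astrocyte markers (1475 to 1550 against 1003 to 1074 FPKM) were also higher in every PEL_10d library. The part of these cells was not tested. The lesion effect at day 10 did not differ between hypothalamus and hippocampus at the threshold for any of the 29 genes, in a fit chosen after the values were seen, where 1.82% of all genes were higher and 0.0663% lower. At an unadjusted p under 0.05 there were 3 (10.3%), against 14.9% of all genes. DESeq2 called 1 (*Bmp4*, higher), a share no larger than the 4.43% of all genes it called higher. *Bmp4* came closest, with a difference of 1.82 ± 0.40 (SE; adjusted p = 0.052). Without HIP_Sham replicate 1 *Bmp4*, *Enpp6* and *Cnksr3* passed, with differences of 1.72, 1.25 and 1.16, where 6.52% of all genes were then higher and 4.22% lower. With Sham replicate 1 included none passed, and the median difference of the mature genes went from 0.45 to -0.0066. That median was 0.29 without Sham replicate 2, 0.66 without HIP_Sham replicate 1 and 0.79 without HIP_PEL_10d replicate 1.

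**Figure D5:**
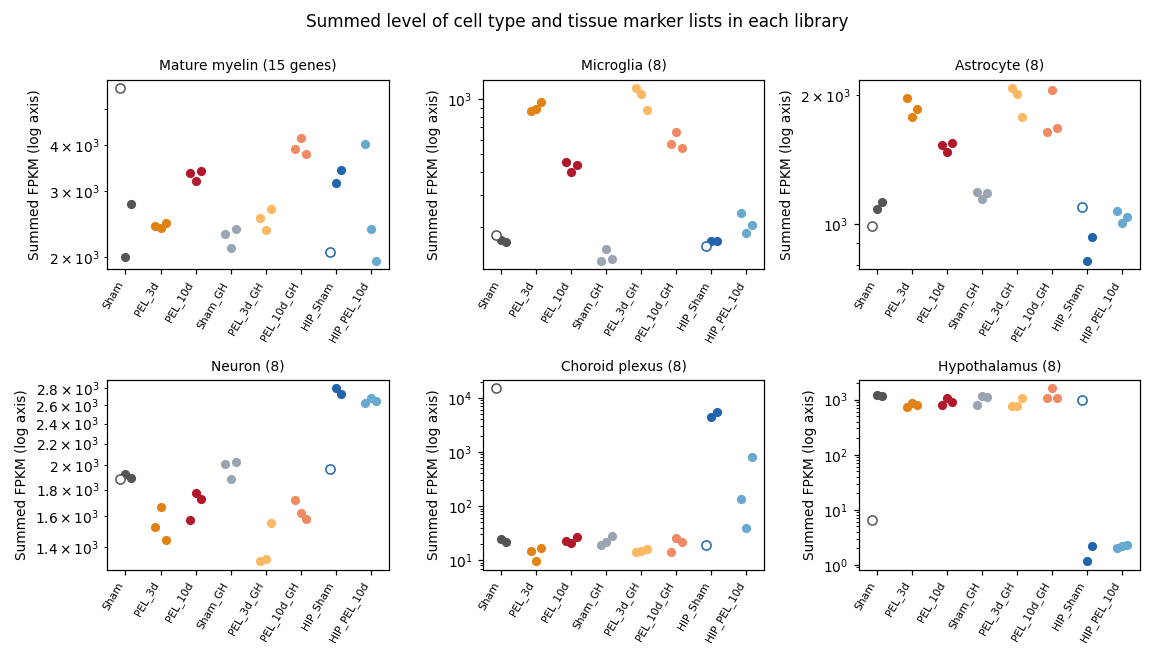
Summed FPKM on a log axis of the 15 mature myelin genes and of 5 marker lists of 8 genes in each of the 24 libraries, by group along the horizontal axis; open circles are Sham replicate 1 and HIP_Sham replicate 1. Microglial and astrocyte sums lie above the sham-operated libraries in all 4 hypothalamic groups after PEL, and the hypothalamic list is at 6.62 in Sham replicate 1 and 989 in HIP_Sham replicate 1.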

How the data were processed

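RNA-seq was measured in 24 libraries. Per the study's methods, reads were aligned with Hisat2 and assigned to genes with featureCounts. The submitters' processing notes name GRCm38 (mm10). The authors deposited, for each gene and library, counts and FPKM values. Of the deposited estimated counts 8.22% were not whole, and all were rounded. The depth, 15095267 to 17973494 counts per library, is per deposited table. Ensembl identifiers were matched to symbols for 22219 of 22274 genes.

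Counts were tested with edgeR 4.0.16 (R 4.3.3) by the quasi-likelihood method with TMM scaling. Genes were filtered with filterByExpr at a count minimum of 10, p-values were adjusted by Benjamini-Hochberg over all genes tested, and a call is an adjusted p under 0.05. Each fit held the groups it compared. Sham replicate 1 was left out because earlier results of these data put it apart and its markers went against its tissue label. The study set an outlier Sham library aside, which its text does not name. SE is the absolute log2 fold change divided by the square root of F. FPKM, deposited by the authors, gave levels only. The scripts were tested on simulated data. The text names the called genes of each comparison with full statistics for the 8 smallest adjusted p, and always *Mbp*, *Mog*, *Mag*, *Mobp*, *Pdgfra* and *Cspg4* after PEL. The genes, lists and comparisons were chosen with earlier results of these data known. Alternatives were DESeq2 1.42.0, its size factors in edgeR, no filter, a floor of 50 on the mean count, the replicate block, 1 fit holding every group of a tissue, Sham replicate 1 included, and each library left out. No 2 libraries were identical. Strand handling is not given in the sources used here, so reads of overlapping antisense genes cannot be told apart.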

Additional observations from a re-analysis of the deposited data

Results flagged for a closer look

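The library labelled Sham replicate 1 stood outside the comparisons and held a signal above the control libraries. Its 15 mature myelin genes summed to 5677 FPKM, against 1997 and 2772 FPKM in the other Sham libraries. Its precursor genes summed to 14.2 FPKM, against 21.2 and 20.3 FPKM. Choroid plexus markers stood at 14876 FPKM in this library, and its hypothalamic markers at 6.62 FPKM. Groups of 3 libraries were too small for the check on single distant values.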

How the results depend on the processing

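Of the gene-level values recomputed, 1412 kept direction and side of the threshold, 139 lost the call, 28 gained it and 17 turned direction. With Sham replicate 1 included, 3 genes were called in PEL_3d against Sham, 0 in PEL_10d against Sham and 0 in Sham_GH against Sham. In that setting, for PEL_3d *Mog* was -0.49, *Mag* -0.43, *Cldn11* -0.36 and *Bcas1* -0.17. For PEL_10d *Mbp* was -0.12, *Mog* -0.17, *Mobp* -0.40, *Tspan2* -0.0013, *Trf* -0.061 and *Myrf* -0.048. At PEL_3d, leaving out 1 library gave ranges of -0.33 to 0.19 for *Mbp*, -0.14 to 0.35 for *Mog*, -0.058 to 0.31 for *Mag* and -0.42 to 0.069 for *Mobp*, with Sham replicate 2 or Sham replicate 3 left out at the ends. *Mobp* in PEL_3d_GH against Sham_GH turned to 0.0095 with a mean count of at least 50, and ranged from -0.072 to 0.043 with 1 library left out. DESeq2 called 1 gene in PEL_3d_GH against PEL_3d, 3 in PEL_10d_GH against PEL_10d, 2 in Sham_GH against Sham, 1 in the day 3 difference with GH and 1 in the difference between tissues. In Sham_GH against Sham it called 1.33% of all genes higher and 0.495% lower. Without a filter 3 were called in Sham_GH against Sham, all lower, where 1.42% of all genes were higher and 0.605% lower. In the day 3 difference 1 was then called, higher, where 0.0382% of all genes were higher and 0.0654% lower. A fit holding every group of the tissue gave 1 in PEL_3d_GH against PEL_3d, where 0.0522% of all genes were higher, and 0 in Sham_GH against Sham. For the hippocampus that fit is the same fit. Over both tissues, such a fit gave 2 in the difference between tissues, where 4.63% of all genes were higher. A mean count of at least 50 gave 1 there, where 2.46% of all genes were higher. The cause of these changes was not tested.

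Leaving out 1 library gave 7 to 12 calls in PEL_3d against Sham, 0 to 11 in PEL_10d against Sham, 0 to 1 in PEL_3d_GH against PEL_3d, 0 to 2 in Sham_GH against Sham and 6 to 22 in PEL_10d against HIP_PEL_10d. It gave 0 to 2 in the day 3 difference and 0 to 3 in the difference between tissues. The share of all genes that were higher moved too. Over the fits that kept at least 2 libraries a group, it ran from 18.8% to 24.9% in PEL_3d against Sham. It ran from 6.45% to 9.08% in PEL_10d against Sham and from 26.8% to 30% in PEL_10d against HIP_PEL_10d. Where leaving out a library left 1 in its group, that library was assumed to vary like the others. Replicate numbers did not pair the libraries: in no comparison did every same-numbered pair of deviations correlate above 0.1. With the replicate block, 5 genes were called in Sham_GH against Sham, all lower, where 1.35% of all genes were higher and 0.825% lower, and no other count of calls moved by more than 1.5 times. Precision is limited by 2 or 3 libraries a group, and by 2 Sham libraries whose mature genes differed.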
